A study of Homo sapiens with 18 samples.

Results

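The small RNAs of ATG12-/- HEK293T cells were compared with those of wild type HEK293T cells, using 6 of the 18 small RNA libraries of the study, 3 for each genotype. HEK293T is a human embryonic kidney line that carries the large T antigen of SV40. The 6 libraries were taken by their labels alone, and every feature of the deposited table was considered: 853 of its 2462 features held at least 10 normalised reads in at least 3 cell libraries and were tested. The ATG12-/- cells were the clone labelled D9, a single clone, and the libraries are labelled as biological replicates. The wild type cells carried no labelled deletion. ATG7-/- cells, the clone labelled F2, were sequenced the same way, as were extracellular vesicles of all 3 genotypes, and both are drawn on below only to place the change in ATG12-/- cells. All cells had been kept for 24 h without serum before RNA was taken, so every value describes starved cells. With 1 clone, the ATG12 deletion and other properties of that clone cannot be told apart.

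ATG12 is a ubiquitin-like protein. ATG7, its activating enzyme, starts its transfer to ATG5, and the conjugate, held by ATG16L1, attaches LC3 to membrane lipids in autophagy and related pathways. The RNAs measured here are mostly noncoding. Box C/D small nucleolar RNAs (snoRNAs) guide ribose methylation of ribosomal RNA and box H/ACA snoRNAs guide pseudouridine formation. Most of both are cut from introns of host genes. MicroRNAs pair with messenger RNAs through a seed near their start and lower their output.

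The 3 ATG12-/- cell libraries held 1360837, 1804089 and 1229796 reads in the table, and the 3 wild type cell libraries held 1606102, 1514246 and 1396337 reads. One read was worth between 0.477 and 0.730 normalised reads in these libraries. Replicates of a genotype had Pearson correlations across features of 0.99 to 0.994 on the log2 scale. Their counts differed by far more than sampling noise, with a chi-square per degree of freedom of 13 to 23.9, so each was used as a sample of its own. The table holds no messenger RNA, so the loss of ATG12 could not be checked in it. The cell label could be checked only in part: microRNAs of the miR-17-92 cluster and of the HOX clusters, which are known from this line, were read. The 5 blood microRNAs listed summed to 2 to 4 reads in ATG12-/- libraries and 2 to 9 reads in wild type libraries, miR-122-5p of liver and miR-124-3p of neurons had at most 2 reads, and miR-1-3p of muscle was the one such marker that passed the filter, with no call.

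The microRNAs on which the results below turn are shown first, since most of them fall into a few groups that share a seed. Sequences are those of RefSeq (GRCh38.p14), written 5′ to 3′, with the seed, bases 2 to 8, in capitals. The pair with the largest decrease has 1 seed, GCUACAU, and lies on chromosome X with starts 856 bases apart (miR-221-3p at chrX:45746180-45746202 and miR-222-3p at chrX:45747036-45747056, both on the minus strand).
miR-221-3p: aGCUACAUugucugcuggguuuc
miR-222-3p: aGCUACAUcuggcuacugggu
The 6 let-7 members that passed the filter have the seed GAGGUAG. Counted from the 5′ end and read from let-7a-5p, let-7b-5p differs by A17G and A19G, let-7c-5p by A19G, let-7e-5p by U9G, let-7f-5p by G12A, and let-7g-5p by G12U and U18C.
let-7a-5p: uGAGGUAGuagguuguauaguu
let-7b-5p: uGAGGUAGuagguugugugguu
let-7c-5p: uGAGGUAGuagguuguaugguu
let-7e-5p: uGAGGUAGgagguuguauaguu
let-7f-5p: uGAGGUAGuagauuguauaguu
let-7g-5p: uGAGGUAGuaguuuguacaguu
The miR-196 pair of the HOX clusters has the seed AGGUAGU and differs by A12C, read from miR-196a-5p. miR-9-3p stands alone with UAAAGCU.
miR-196a-5p: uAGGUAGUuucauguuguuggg
miR-196b-5p: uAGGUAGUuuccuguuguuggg
miR-9-3p: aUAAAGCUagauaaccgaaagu

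Across all features, C/D box snoRNAs were lower in ATG12-/- cells, a few microRNAs moved far in either direction, and tRNA genes moved both ways. At an adjusted p under 0.05 (limma with Benjamini-Hochberg adjustment over the 853 features), 219 features were called, 25.7% of those tested: 64 were higher (7.5%) and 155 lower (18.2%) in ATG12-/- cells. For 414 features (48.5%) the 3 libraries of one genotype did not overlap those of the other. The count depends on each library: without ATG12-/- replicate 1, 2 or 3 it was 119, 134 or 129, and without wild type replicate 1, 2 or 3 it was 96, 116 or 150. Every call that was tested again kept its direction in each of these fits. The balance of higher and lower calls depends on the scaling. With the deposited scaling 29.2% of the calls were higher, with library totals 62.7% (104 higher and 62 lower), with TMM factors (trimmed mean of M-values) over all features 52.2% (93 and 85), with median-of-ratios factors over the cell libraries 48.1% (88 and 95), and with TMM factors from microRNAs 6.5% (18 and 259). Against the deposited scaling, where the median log2 fold change of all features was -0.13, these shifted that median by 0.23, 0.14, 0.12 and -0.23. Called in the same direction under all 5 scalings were 18 features higher, of them 7 microRNAs and 11 tRNA genes. Lower under all 5 were 62 features, of them 40 C/D box snoRNAs and 17 tRNA genes. The others were miR-221-3p and miR-222-3p, U23 of the H/ACA box class, U4 and U7. The filter used the deposited scaling in all 5 runs. Of the 7 microRNAs, miR-181a-5p and miR-9-3p passed it only through knockout libraries, and miR-1226-3p averaged 8.09 normalised reads over the 6 libraries. miR-221-3p passed it only through wild type and ATG7-/- libraries. For these, holding under all 5 scalings does not offset the filter.

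**Figure D1:**
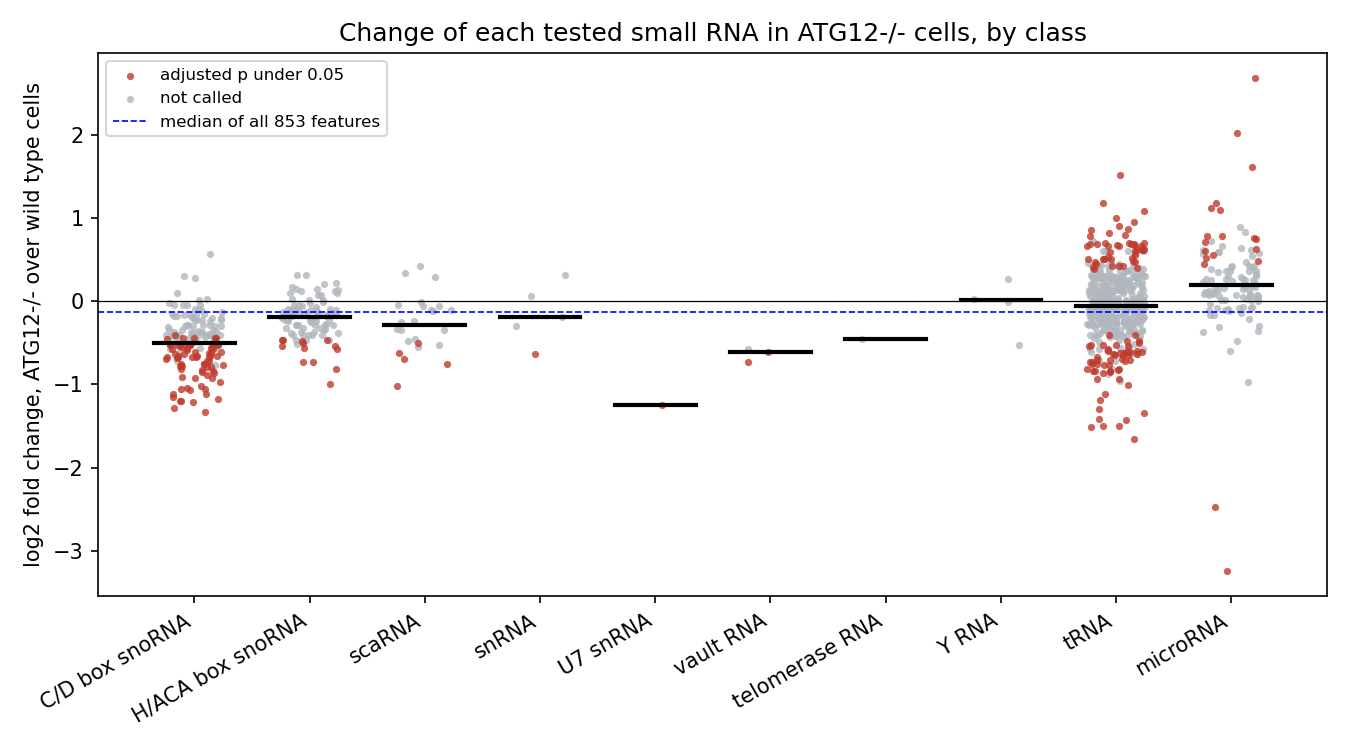
Log2 fold change of each of the 853 tested features in ATG12-/- over wild type cells, by RNA class; black bars are class medians, red points have an adjusted p under 0.05 and the dashed line is the median of all features, -0.13. C/D box snoRNAs lie mostly below the dashed line with a median of -0.50, and microRNAs hold both the lowest value, -3.25, and the highest, 2.69. The highest is miR-181a-5p, which passed the filter only through knockout libraries.

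Many C/D box snoRNAs fell, and none rose under the deposited scaling. Of the 150 tested, 75 were lower and 0 higher, against 18.2% lower and 7.5% higher among all features, and their median log2 fold change was -0.50 against -0.13 for all features. The class median stayed below 0 under every scaling, from -0.28 with library totals, where 40 were lower and 1 higher, to -0.73 with TMM factors from microRNAs. Leaving out 1 library at a time gave 47, 55 or 53 lower calls without ATG12-/- replicate 1, 2 or 3, and 40, 49 or 57 without wild type replicate 1, 2 or 3. Where the annotation placed them, 24 of 40 C/D box snoRNAs in ribosomal protein genes and 39 of 82 in other hosts were lower, with medians of -0.52 and -0.48.

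U45A (SNORD45A, in an intron of RABGGTB), a methylation guide for the small ribosomal subunit RNA, had the largest fall of the class. It had 568, 826 and 866 normalised reads in ATG12-/- cells, against 2081, 1829 and 1702 in wild type cells. Every ATG12-/- library lay under every wild type library (log2 fold change -1.33, SE 0.22, adjusted p = 0.00127). U27 (SNORD27, in SNHG1), also a guide for the small subunit RNA and among the 10 features with the most reads, had 10315, 11700 and 10314 normalised reads in ATG12-/- cells, against 21407, 18601 and 18737 in wild type cells (log2 fold change -0.86, SE 0.15, adjusted p = 0.00199). Of similar size to U45A were the falls of HBII-115 (SNORD23, in NOP53; log2 fold change -1.28), HBII-419 (SNORD98, in CCAR1; -1.21) and U36C (SNORD36C, in RPL7A; -1.20). U36C had 212, 266 and 242 normalised reads in ATG12-/- cells, against 679, 511 and 480 in wild type cells. HBII-115 and HBII-419 were read far less, at 29 to 53.4 normalised reads in ATG12-/- cells and 84.7 to 110 in wild type cells. Groups did not overlap for any of these 5, and each of their calls held in every alternative run.

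The sequences of U27, U45A and U22 are shown because U27 has many reads and a large fall, U45A moved most and U22 moved the opposite way in vesicles. They are GENCODE 29 transcripts (GRCh38), with the C box letters TGATGA within the first 20 bases and the D box letters CTGA within the last 20 bases in capitals, searched on the RNA's own strand. U27 lies at chr11:62855012-62855083 (minus strand), U45A at chr1:75787889-75787972 (plus strand) and U22 at chr11:62852910-62853035 (minus strand).
U27: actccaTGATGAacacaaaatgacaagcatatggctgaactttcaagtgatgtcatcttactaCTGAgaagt
U45A: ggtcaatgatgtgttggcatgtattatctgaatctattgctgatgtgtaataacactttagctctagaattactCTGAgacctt
U22: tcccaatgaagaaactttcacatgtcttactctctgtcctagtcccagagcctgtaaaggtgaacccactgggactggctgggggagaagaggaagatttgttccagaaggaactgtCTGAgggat
Of the 3, U27 has the exact C box letters in that window. Of the 243 C/D box snoRNAs with a transcript sequence, 72.4% held the C box letters and 97.1% the D box letters in these windows, against 0.935% and 9.35% of 107 H/ACA box snoRNAs. Both boxes were spelled out in 32 of the 64 C/D box snoRNAs called lower and in 42 of the 62 that were tested but not called. This is a description of the letters, and no test was made of it.

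The C/D box calls are given here by host gene, with no test between hosts. SNHG1, a noncoding host whose snoRNAs lie in consecutive introns, had 7 of its 8 snoRNAs called lower (median log2 fold change -0.76). That is 87.5%, against 18.2% of all features and 50% of the class. For all 8 the genotypes did not overlap, but this was also so for 121 of the 150 C/D box snoRNAs tested, and for 48.5% of all features. Leaving out any 1 of the 6 libraries left 6 of the 8 called. U26 (SNORD26) had 3767, 5097 and 4988 normalised reads in ATG12-/- cells, against 9794, 7683 and 8150 in wild type cells (log2 fold change -0.89, adjusted p = 0.00369). U28 (SNORD28) had 539, 860 and 731 in ATG12-/- cells, against 1661, 1088 and 1244 in wild type cells (-0.91, adjusted p = 0.00534). U22 (SNORD22), which acts in processing of the precursor of ribosomal RNA rather than as a methylation guide, had 152, 94.9 and 70.6 normalised reads in ATG12-/- cells, against 227, 278 and 197 in wild type cells (-1.20, adjusted p = 0.00534). In each of these the lowest wild type library was above the highest ATG12-/- library.

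In GAS5, another noncoding host, 4 of 10 snoRNAs were called lower (median -0.40), above the 18.2% of all features and below the 75 of 150 of their own class. U77 (SNORD77) had 4406, 5119 and 4303 normalised reads in ATG12-/- cells, against 8565, 7529 and 7788 in wild type cells (log2 fold change -0.79, adjusted p = 0.00335), and U47 (SNORD47) had 3880, 3980 and 4012 in ATG12-/- cells, against 7290, 6257 and 6405 in wild type cells (-0.75, adjusted p = 0.00397). The 10 ranged from -0.79 to -0.05, so the highest lay above the median of all features. The GAS5 count was 2, 4 or 3 without ATG12-/- replicate 1, 2 or 3 and 2, 3 or 3 without wild type replicate 1, 2 or 3. In RPL13A, a ribosomal protein gene, 3 of 4 were lower (75%, against 18.2% of all features and 50% of the class). U34 (SNORD34) had 10558, 12837 and 10688 normalised reads in ATG12-/- cells, against 20998, 18105 and 18180 in wild type cells (-0.75, adjusted p = 0.00388). U33 (SNORD33) of the same gene had 3411, 4033 and 3587 in ATG12-/- cells, against 6443, 5921 and 5263 in wild type cells (-0.67, adjusted p = 0.00863), a call lost without wild type replicate 1, where the value was -0.61. Without that library 1 of the 4 RPL13A snoRNAs was lower, and 2 without any other. Of the 2 SNHG5 snoRNAs 1 was lower (50%, the same as the class share), and of the 3 ZFAS1 snoRNAs 1 was lower (33.3%, under the class share). The SNHG5 call was lost without any 1 library and the ZFAS1 call without wild type replicate 1.

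**Figure D2:**
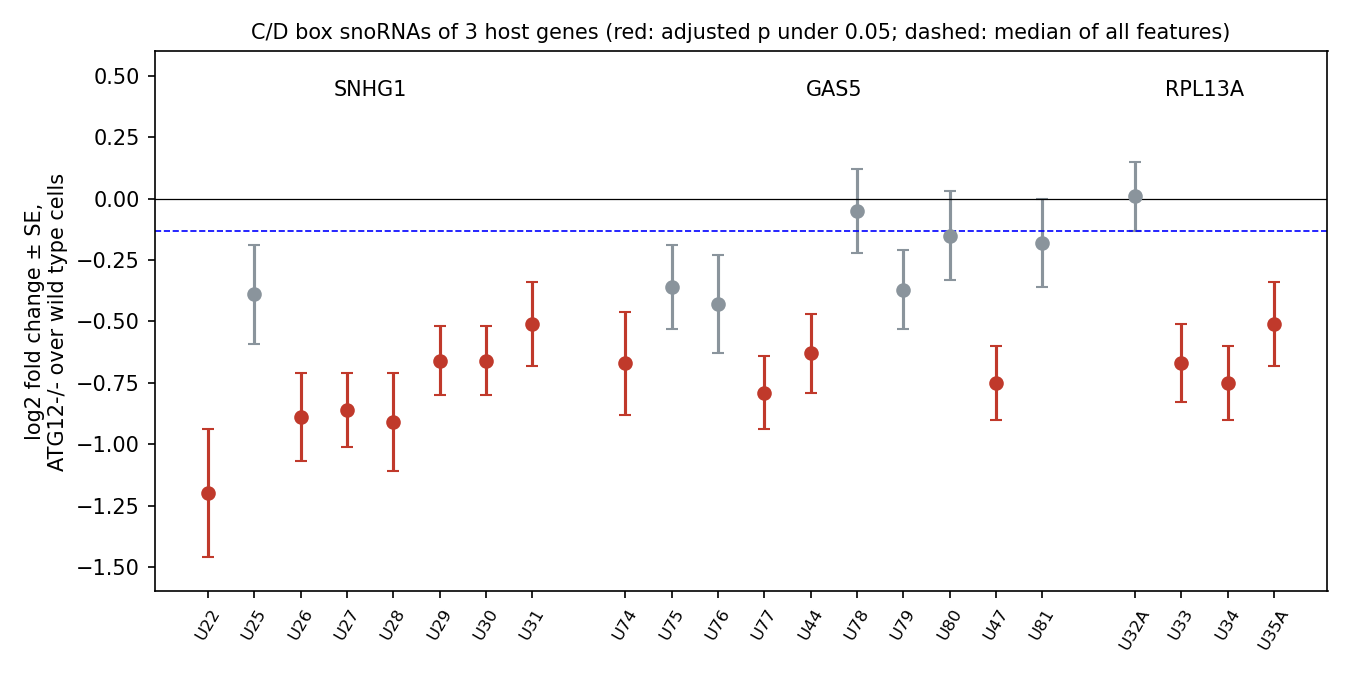
Log2 fold change with its standard error in ATG12-/- over wild type cells (n = 3 libraries each) for the C/D box snoRNAs of SNHG1, GAS5 and RPL13A; red points have an adjusted p under 0.05 and the dashed line is the median of all 853 features. The 8 SNHG1 snoRNAs lie between -1.20 and -0.39, those of GAS5 between -0.79 and -0.05, and U32A of RPL13A lies at 0.01.

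Among 12 snoRNAs of pre-rRNA processing, 4 were lower (33.3%, against 18.2% of all features) and 0 higher. Most of the 12 are C/D box snoRNAs, and 33.3% is under the 50% called lower in that class. Of the 12, 5 are copies of U3 with nearly the same values, which cannot be taken as separate. The 12 had a median of -0.21 that turned to 0.02 with library totals. The count was 3, 3 or 4 without ATG12-/- replicate 1, 2 or 3 and 2, 3 or 4 without wild type replicate 1, 2 or 3. U8 (SNORD118, next to TMEM107), which is needed for maturation of the large subunit RNAs, had 4638, 4551 and 4318 normalised reads in ATG12-/- cells, against 7069, 6813 and 6468 in wild type cells. The genotypes were well apart and the replicates close (log2 fold change -0.59, SE 0.13, adjusted p = 0.00534).

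H/ACA box snoRNAs were nearer to the median of all features. Of 98 tested, 13 were lower (13.3%, under the 18.2% of all features) and 0 higher, and their median of -0.19 turned to 0.04 with library totals, where 1 was lower. Leaving out 1 library left 2, 4 or 5 lower calls without ATG12-/- replicate 1, 2 or 3 and 1, 2 or 7 without wild type replicate 1, 2 or 3. U23 (SNORA75, in NCL, the nucleolin gene) was the H/ACA box snoRNA called under all 5 scalings. It had 469, 472 and 446 normalised reads in ATG12-/- cells, against 830, 898 and 726 in wild type cells (log2 fold change -0.82, SE 0.17, adjusted p = 0.00481). Of 24 scaRNAs, which guide modification of spliceosomal RNAs in Cajal bodies, 5 were lower (20.8%, near the 18.2% of all features) and 0 higher (median -0.29), a count of 3, 3 or 1 without ATG12-/- replicate 1, 2 or 3 and of 1, 1 or 2 without wild type replicate 1, 2 or 3, and of 0 lower and 1 higher with library totals. mgU2-19/30 (SCARNA9) had 139, 169 and 165 normalised reads in ATG12-/- cells, against 276, 245 and 244 in wild type cells (-0.69, adjusted p = 0.0089), a call lost only with library totals, at -0.47. U88 (SCARNA6) lies in an intron of ATG16L1, the partner of the ATG12 conjugate. It had 10.3, 12.4 and 11.2 normalised reads in ATG12-/- cells, against 27.4, 24.4 and 20.4 in wild type cells (-1.02, adjusted p = 0.0219). That call rests on few reads, 16 to 26 per ATG12-/- library and 28 to 43 per wild type library, and was lost with library totals (-0.81), without the filter, and without ATG12-/- replicate 1 or 3 (-0.96 and -1.02) or wild type replicate 1 or 2 (-0.93 and -1.01).

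Among nuclear RNAs with other tasks, U7 and U4 were lower. U7, which directs the trimming of histone messenger RNA ends, had 340, 340 and 306 normalised reads in ATG12-/- cells, against 789, 769 and 778 in wild type cells. Replicates of both genotypes were nearly level and lay far apart (log2 fold change -1.25, SE 0.13, adjusted p = 3.66e-05). U4, which delivers U6 to the spliceosome, had 526, 537 and 506 normalised reads in ATG12-/- cells, against 829, 864 and 749 in wild type cells (-0.64, SE 0.12, adjusted p = 0.00338). Both calls held in every alternative run. The other spliceosomal RNAs were not called under the deposited scaling: U5 had a log2 fold change of -0.30, U2 of -0.19, U1 of 0.06 and U6 of 0.32, and U2 and U1 changed sign under some scalings. U6 was called higher with library totals (0.55, adjusted p = 0.0345), with the 6 libraries alone (adjusted p = 0.0136) and without ATG7-/- replicate 3 (adjusted p = 0.0395).

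Y RNAs, which bind the Ro60 protein, and the telomerase RNA were not called under the deposited scaling. The log2 fold changes were -0.53 for RNY5 (adjusted p = 0.0678), -0.01 for RNY1, 0.03 for RNY4 and 0.27 for RNY3, those of RNY1 and RNY4 changing sign with the scaling, and -0.45 for hTR (adjusted p = 0.117). RNY3 was called higher with library totals (0.49, adjusted p = 0.00493), with TMM factors over all features (0.41, adjusted p = 0.0362), with the 6 libraries alone and without ATG7-/- replicate 3. RNY5 was called lower with TMM factors from microRNAs (-0.76, adjusted p = 0.0128), with DESeq2 (-0.52, adjusted p = 0.0481), with a replicate block, with the 6 libraries alone, and without ATG12-/- replicate 2 or ATG7-/- replicate 1 or 2. hTR was called lower with TMM factors from microRNAs (-0.67, adjusted p = 0.0213). Vault RNAs, made by RNA polymerase III from a cluster on chromosome 5, were lower in 2 of 3 tested (66.7%, against 18.2% of all features). VTRNA1-2 had 122, 144 and 171 normalised reads in ATG12-/- cells, against 271, 255 and 200 in wild type cells (log2 fold change -0.73, adjusted p = 0.0179). VTRNA1-3 had a log2 fold change of -0.61 (adjusted p = 0.0486) and overlapping groups, and VTRNA1-1 had -0.58 (adjusted p = 0.0552). The calls of VTRNA1-2 and VTRNA1-3 did not hold with TMM factors over all features (-0.59 and -0.46), with library totals (-0.50 and -0.38) or without ATG12-/- replicate 1 (-0.61 and -0.42), wild type replicate 1 (-0.64 and -0.53) or wild type replicate 2 (-0.69 and -0.50), and VTRNA1-3 also lost its call with median-of-ratios factors (-0.49), without the filter and without ATG12-/- replicate 3 (-0.67). VTRNA1-1 was called lower in several alternatives, with TMM factors from microRNAs (-0.81, adjusted p = 0.0133), DESeq2 (-0.61, adjusted p = 0.0302), edgeR (-0.61, adjusted p = 0.0417), a minimum of 50 normalised reads, the 6 libraries alone, and without ATG7-/- replicate 1 or 2 or wild type replicate 3 (-0.75).

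MicroRNAs held the largest changes. Of 110 tested among 1425 entries, 17 were higher (15.5%, against 7.5% of all features) and 2 lower, and the median of 0.20 turned to -0.01 with TMM factors from microRNAs, where 7 were higher and 8 lower. Leaving out 1 library left 8, 8 or 8 higher calls without ATG12-/- replicate 1, 2 or 3 and 7, 8 or 14 without wild type replicate 1, 2 or 3. The 2 lower microRNAs under the deposited scaling were miR-222-3p and miR-221-3p, printed above, which are made from 1 gene cluster and are known to repress the cell cycle inhibitor CDKN1B. miR-222-3p had 14.8, 15.3 and 6.29 normalised reads in ATG12-/- cells, against 111, 117 and 123 in wild type cells. These were 23, 32 and 9 reads in ATG12-/- cells, against 174, 177 and 168 reads in wild type cells. No other tested feature fell as far (log2 fold change -3.25, SE 0.27, adjusted p = 6.34e-06). miR-221-3p had 1.93, 2.39 and 3.5 normalised reads in ATG12-/- cells, from 3, 5 and 5 reads. Wild type cells had 16.6, 17.2 and 23.4, from 26, 26 and 32 reads (-2.48, SE 0.29, adjusted p = 8.35e-05). miR-221-3p was under 10 normalised reads in every ATG12-/- library. It therefore passed the filter only through wild type and ATG7-/- libraries, which favoured a fall. With so few reads the size of this fold depends on the pseudocount, but both calls held in every alternative run that tested them. The run with a higher minimum of normalised reads could not test miR-221-3p, which was too low in every cell library.

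Of the 6 let-7 members tested, 3 were higher (50%, against 15.5% of tested microRNAs and 7.5% of all features) and 0 lower. let-7 microRNAs repress growth genes and rise as cells differentiate. let-7b-5p had 156, 142 and 145 normalised reads in ATG12-/- cells, against 36.9, 36.3 and 32.9 in wild type cells, with narrow replicates and a wide gap (log2 fold change 2.03, SE 0.16, adjusted p = 4.64e-06). let-7a-5p had 3167, 3015 and 3187 normalised reads in ATG12-/- cells, against 1510, 1286 and 1535 in wild type cells (1.12, SE 0.13, adjusted p = 8.35e-05). One of the gene copies of let-7a lies 939 bases from let-7b on chromosome 22 (let-7b-5p at chr22:46113691-46113712, plus strand), and others lie on chromosomes 9 and 11. let-7f-5p had 510, 464 and 523 normalised reads in ATG12-/- cells, against 387, 314 and 366 in wild type cells (0.49, adjusted p = 0.0258). The let-7f-5p call, unlike the other two, was lost with TMM factors from microRNAs (0.26) and without ATG12-/- replicate 1 or 3 (0.48 and 0.46) or wild type replicate 1, 2 or 3 (0.56, 0.41 and 0.52). let-7c-5p, 1 base from let-7b-5p and 1 from let-7a-5p, had 107, 112 and 115 normalised reads in ATG12-/- cells, against 109, 92.4 and 113 in wild type cells, so the groups overlapped (0.09, adjusted p = 0.641). let-7e-5p (0.17, adjusted p = 0.387) and let-7g-5p (0.15, adjusted p = 0.67) were not called either, and these 3 had values below 0 with TMM factors from microRNAs.

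**Figure D3:**
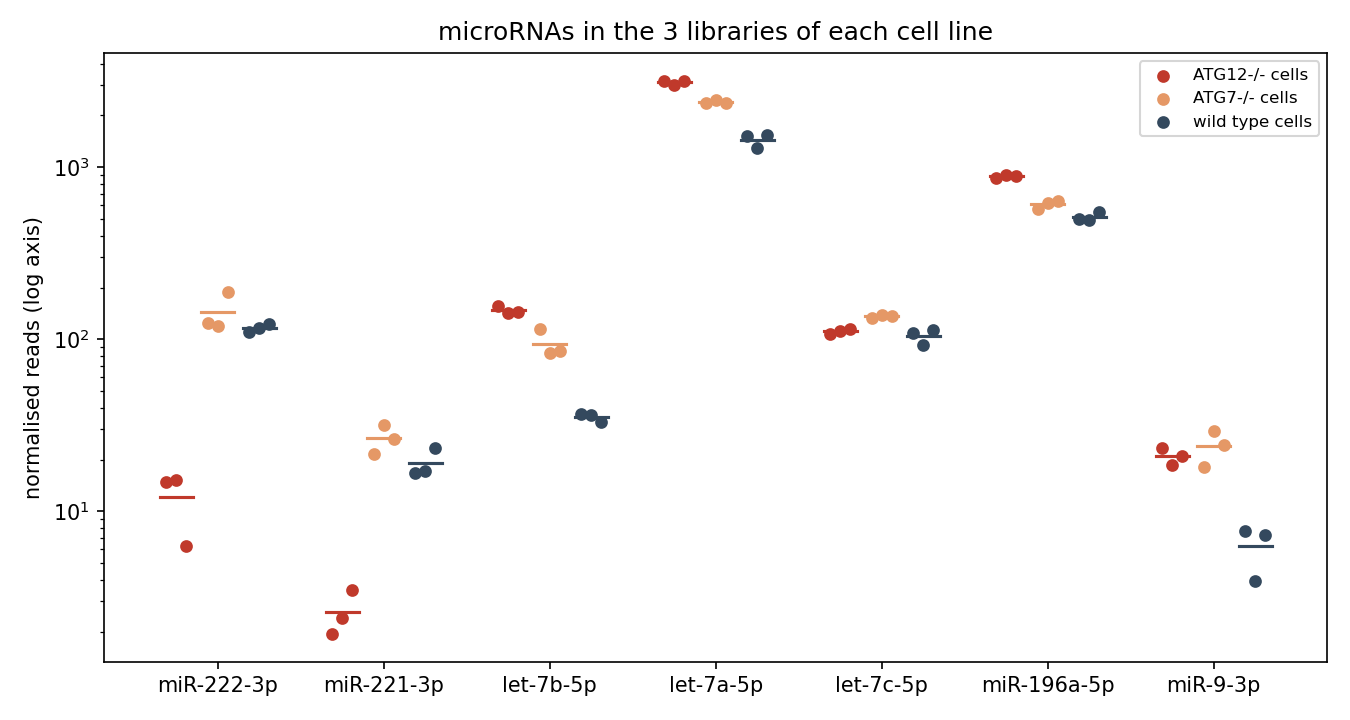
Normalised reads (log axis) of 7 microRNAs in the 3 libraries of ATG12-/- (red), ATG7-/- (orange) and wild type (dark) cells; short lines are means. The ATG12-/- libraries of miR-222-3p and miR-221-3p lie far under both other lines, those of let-7b-5p lie above both, and the let-7c-5p libraries of ATG12-/- and wild type cells overlap.

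Among the HOX cluster microRNAs, 3 of 4 tested were higher (75%, against 15.5% of tested microRNAs and 7.5% of all features). The count was 1 under the microRNA-based TMM scaling. miR-196a-5p had 861, 898 and 893 normalised reads in ATG12-/- cells, against 500, 493 and 553 in wild type cells (log2 fold change 0.78, SE 0.13, adjusted p = 0.000919), a call that held in every alternative. miR-196b-5p, which differs from it by 1 base outside the seed, had 98.6 to 116 normalised reads in ATG12-/- cells, against 63.7 to 78.5 in wild type cells (0.56, adjusted p = 0.0179). Its call was lost with TMM factors from microRNAs (0.33), without ATG12-/- replicate 2 (0.48) and without wild type replicate 1 (0.47). miR-10a-5p had 54, 63.9 and 56.6 in ATG12-/- cells, against 33.8, 33 and 38.7 in wild type cells (0.71, adjusted p = 0.0353), and no single library could be left out without losing that call, at values of 0.64 to 0.78, which was also lost with TMM factors from microRNAs (0.49) and without the filter.

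In the miR-17-92 cluster and its paralogs, 2 of 14 tested were higher (14.3%, near the 15.5% of all tested microRNAs) and 0 lower. The median was 0.29, and 0.07 with TMM factors from microRNAs. The count was 1 without any single library other than wild type replicate 3, and 1 member was lower without ATG12-/- replicate 2. miR-17-5p, a promoter of cell cycle entry, had 70.8, 107 and 93.7 normalised reads in ATG12-/- cells, against 58, 47.5 and 51.8 in wild type cells (log2 fold change 0.76, SE 0.17, adjusted p = 0.00656). Of 14 listed microRNAs that have been reported to target autophagy genes 5 were tested. Of these, miR-17-5p and miR-181a-5p were higher (40%, against 15.5% of tested microRNAs and 7.5% of all features) and 0 were lower. miR-181a-5p had 5.15, 10.5 and 15.4 normalised reads in ATG12-/- cells, from 8, 22 and 22 reads, against 0, 3.3 and 0 in wild type cells, from 0, 5 and 0 reads (2.69, SE 0.56, adjusted p = 0.00474). With no read in 2 of the wild type libraries the size of this change is loose. It ran from 2.34 without wild type replicate 1 or 3 to 3.39 without wild type replicate 2, and was 1.32 with a pseudocount of 5. The call held in every run that tested it. miR-181a-5p reached 10 normalised reads in 2 ATG12-/- libraries and in no wild type library. It therefore passed the filter only through knockout libraries, which favoured a rise. miR-9-3p, a brain-enriched microRNA, had 23.2, 18.6 and 21 normalised reads in ATG12-/- cells, against 7.64, 3.96 and 7.3 in wild type cells (1.62, SE 0.29, adjusted p = 0.00187). It too was under 10 normalised reads in every wild type library and passed the filter only through knockout libraries. None of the 6 microRNA entries that lie on snoRNA genes was called, and no entry of miR-210 or of the imprinted 14q32 and 15q11 clusters passed the filter.

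tRNA genes moved in both directions. Of the 457 tested, which fall into 293 families by name, 47 genes in 30 families were higher (10.3%, against 7.5% of all features) and 56 genes in 44 families were lower (12.3%, against 18.2% of all features). The balance turned with the scaling: 76 were higher and 17 lower with library totals, where the median of -0.06 became 0.16, and 11 were higher and 96 lower with TMM factors from microRNAs. The higher and lower counts were 31 and 24, 17 and 39 or 24 and 33 without ATG12-/- replicate 1, 2 or 3, and 23 and 20, 28 and 24 or 16 and 47 without wild type replicate 1, 2 or 3. Gene copies of a family share most of their sequence, so their counts are not independent, and reads of a precursor, a mature tRNA and a fragment were not told apart.

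By amino acid, the share of genes called higher was largest for glutamate (55.6%) and tyrosine (50%), against 7.5% of all features, under the deposited scaling. The share called lower was largest for aspartate (38.5%) and valine (37.5%), against 18.2% of all features. For glutamate 10 of 18 genes in 4 families were higher and 1 lower (median 0.63), but the higher count was 0, 1 or 7 without ATG12-/- replicate 1, 2 or 3, 0, 8 or 0 without wild type replicate 1, 2 or 3, and 0 with TMM factors from microRNAs. For tyrosine 6 of 12 were higher and 0 lower (median 0.34), a count of 3 without any 1 of the 6 libraries and of 2 with TMM factors from microRNAs. Tyr-GTA-7-1 had 94.6, 61.5 and 79 normalised reads in ATG12-/- cells, against 39.5, 38.3 and 29.9 in wild type cells (log2 fold change 1.09, adjusted p = 0.00161), and Tyr-GTA-4-1 had means of 169 ± 23.4 in ATG12-/- cells and 91.9 ± 12.4 in wild type cells (± is the SD of 3 libraries; log2 fold change 0.87, adjusted p = 0.00534). Lys-CTT-chr15-5 had 231, 237 and 173 in ATG12-/- cells, against 121, 121 and 96.4 in wild type cells (0.91, adjusted p = 0.00456).

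For valine 12 of 32 genes were lower (37.5%, against 18.2% of all features) and 0 higher (median -0.31). With library totals 4 were lower and the median was -0.08, and leaving out 1 library gave 5, 10 or 8 lower without ATG12-/- replicate 1, 2 or 3 and 1, 6 or 12 without wild type replicate 1, 2 or 3. For glutamine 5 of 22 were lower (22.7%, near the share of all features; median -0.49), a count of 0 without ATG12-/- replicate 1 or wild type replicate 1 or 2, of 2 without any other library, and of 0 with library totals. The 5 lower genes of 13 for aspartate (median -0.43) were still 5 without any 1 library. Asp-GTC-2-11 had 97.8, 118 and 89.5 normalised reads in ATG12-/- cells, against 315, 331 and 317 in wild type cells, the largest fall of any tRNA gene (log2 fold change -1.66, SE 0.16, adjusted p = 3.04e-05). Asp-GTC-1-1 had 378, 191 and 145 in ATG12-/- cells, against 413, 662 and 628 in wild type cells (-1.34, adjusted p = 0.00527), with wider replicates.

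Alanine and asparagine tRNAs had calls in both directions under the deposited scaling. For alanine 9 of 49 genes were higher (18.4%, against 7.5% of all features) and 11 lower (22.4%, near the 18.2% of all features). The counts were 14 and 3 with library totals and 6 and 19 with TMM factors from microRNAs. Ala-CGC-4-1 had 1372, 1426 and 1552 normalised reads in ATG12-/- cells, against 809, 807 and 642 in wild type cells (log2 fold change 0.95, adjusted p = 0.000617), whereas Ala-AGC-13-1 had 29, 28.6 and 28.7 in ATG12-/- cells, against 74.5, 98.3 and 78.1 in wild type cells (-1.50, adjusted p = 0.000139). Genes of 1 anticodon differed as well: Ala-AGC-7-1 had 1269, 1285 and 1305 in ATG12-/- cells, against 685, 706 and 730 in wild type cells (0.86, adjusted p = 0.000612), and Ala-AGC-2-2 had 1355, 1360 and 1402 in ATG12-/- cells, against 751, 787 and 797 in wild type cells (0.82, adjusted p = 0.000851). The counts for Ala-AGC-chr6-168 (-1.51) were almost those of Ala-AGC-13-1, so the 2 cannot be taken as separate evidence. The alanine lower count was 6, 7 or 8 without ATG12-/- replicate 1, 2 or 3 and 6, 5 or 9 without wild type replicate 1, 2 or 3. For asparagine 7 of 25 were higher (28%, against 7.5% of all features) and 3 lower (12%, under the 18.2% of all features). With TMM factors from microRNAs 0 were higher and 3 lower. The 3 lower under the deposited scaling were Asn-GTT-10-1 (-1.43), Asn-GTT-8-1 (-1.42) and Asn-GTT-12-1 (-1.29). Their counts were nearly the same in each library, so the 3 cannot be taken as separate evidence. The higher count was 1, 1 or 3 without ATG12-/- replicate 1, 2 or 3 and 1, 2 or 1 without wild type replicate 1, 2 or 3. Asn-GTT-10-1 had 119, 94 and 88.1 normalised reads in ATG12-/- cells, against 236, 307 and 271 in wild type cells (adjusted p = 8.35e-05). Gly-GCC-4-1 had 52.8, 54.4 and 48.9 normalised reads in ATG12-/- cells, against 19.7, 9.24 and 28.5 in wild type cells, the largest rise of a tRNA gene (1.52, SE 0.31, adjusted p = 0.00445).

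Read by class, without any scaling factor, C/D box snoRNAs made up 51.5, 52.5 and 53% of the reads in ATG12-/- libraries, against 61.9, 58.7 and 63.6% in wild type libraries. The means were 52.3 ± 0.766% in ATG12-/- and 61.4 ± 2.53% in wild type libraries (SD, n = 3 each), and the genotypes did not overlap. tRNAs made up 31.7 ± 0.831% in ATG12-/- cells and 24 ± 2.03% in wild type cells, a difference of 7.76 percentage points that was 4.27 when 1 copy per tRNA family was counted. microRNAs made up 2.84 ± 0.114% in ATG12-/- cells and 2.15 ± 0.153% in wild type cells. The share was 3.88% in ATG12-/- and 3.28% in wild type cells for Y RNAs, 2.95% in ATG12-/- and 2.52% in wild type cells for snRNAs, and 0.0379% in ATG12-/- and 0.0768% in wild type cells for U7, also without overlap. For each of these 6 classes the exact two-sided permutation test gave p = 0.1, the smallest that 3 against 3 libraries allow, and 0.167 after adjustment over 10 classes, so no share reached the threshold. H/ACA box snoRNAs, at 5.82% in ATG12-/- and 6.16% in wild type cells, overlapped (p = 0.5 in the same exact test). Shares sum to the whole, so a lower share of one class raises the others. They describe the makeup of the libraries, and fewer cells and less RNA per cell cannot be told apart.

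**Figure D4:**
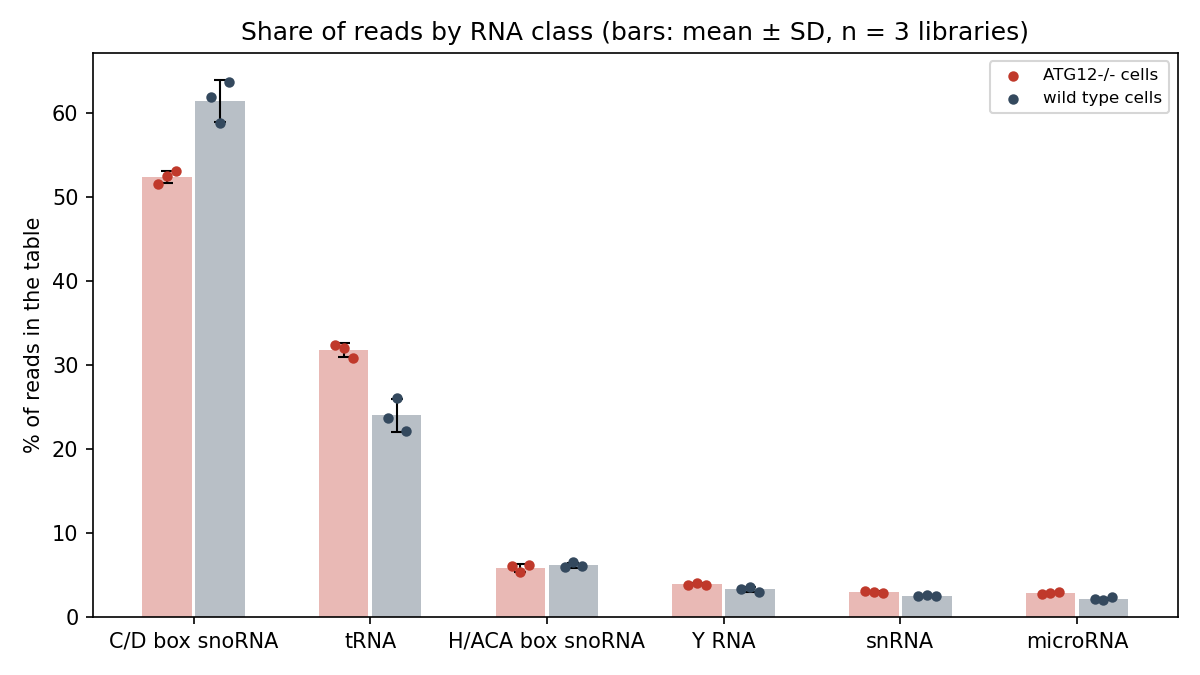
Percentage of the reads of each library by RNA class for ATG12-/- (red) and wild type (dark) cells; bars are means with SD and points the 3 libraries. The C/D box snoRNA share is lower in all 3 ATG12-/- libraries, 51.5 to 53%, than in the wild type libraries, 58.7 to 63.6%, and the tRNA share is higher.

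ATG7-/- cells lack the enzyme upstream of ATG12. In the same fit, ATG12-/- cells differed from ATG7-/- cells in 171 features (20%), of which 48 were higher (5.63%) and 123 lower (14.4%) in ATG12-/- cells, counts that depend on scaling and on single libraries. The higher count was 23 without ATG12-/- replicate 1 and 21 without ATG7-/- replicate 2, and the lower count was 56 without ATG12-/- replicate 1, 67 without ATG12-/- replicate 3 and 62 without ATG7-/- replicate 2. The ATG12-/- and ATG7-/- values against wild type share the wild type libraries, so they are set side by side without a measure of likeness. ATG7-/- cells had 72 features higher (8.44%) and 71 lower (8.32%) than wild type cells. Of C/D box snoRNAs 75 of 150 were lower in ATG12-/- cells and 9 in ATG7-/- cells against wild type, with medians of -0.50 and -0.17. Directly against ATG7-/- cells, 53 of the 150 were lower and 1 higher in ATG12-/- cells.

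miR-222-3p and miR-221-3p were low in ATG12-/- cells but not in ATG7-/- cells. In ATG7-/- cells miR-222-3p had 124, 119 and 189 normalised reads and miR-221-3p 21.4, 31.9 and 26.4, with log2 fold changes against wild type of 0.27 (adjusted p = 0.513) and 0.46 (adjusted p = 0.266). ATG12-/- minus ATG7-/- cells gave log2 differences of -3.52 (adjusted p = 4.65e-06) and -2.94 (adjusted p = 4.11e-05). U7, with 643, 552 and 652 normalised reads in ATG7-/- cells, had a log2 difference of ATG12-/- minus ATG7-/- cells of -0.90 (adjusted p = 0.000495), and U45A one of -1.18 (adjusted p = 0.00418). VTRNA1-2 had 423, 711 and 548 normalised reads in ATG7-/- cells, above the wild type, and its log2 difference of ATG12-/- minus ATG7-/- was -1.92 (adjusted p = 4.51e-05). miR-196a-5p (0.54, adjusted p = 0.0109) and Ala-AGC-7-1 (0.97, adjusted p = 0.000471) were higher in ATG12-/- than in ATG7-/- cells. The calls of miR-196a-5p and Ala-AGC-7-1 held in every alternative run that tested them.

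Other features had changes of the same direction in both lines against wild type. let-7b-5p had 115, 82.7 and 85.7 normalised reads in ATG7-/- cells, a log2 fold change of 1.38 against wild type (adjusted p = 0.000106), and was 0.65 higher in ATG12-/- than in ATG7-/- cells (adjusted p = 0.0126). That difference was not called without ATG12-/- replicate 1 (0.61) or ATG7-/- replicate 2 (0.57). let-7a-5p had 2366, 2471 and 2368 normalised reads in ATG7-/- cells (0.74 against wild type, adjusted p = 0.0023). Asp-GTC-2-11 had 92.2, 137 and 126 (-1.45, adjusted p = 0.000106) and Asn-GTT-10-1 averaged 90.7 ± 14.3 (SD, n = 3; -1.57, adjusted p = 7.22e-05). For U88 the value was -1.03 in ATG7-/- cells (adjusted p = 0.026), with 7.41, 16.4 and 11.4 normalised reads. The direct difference, ATG12-/- minus ATG7-/- cells, was not called for Asp-GTC-2-11 (-0.20, adjusted p = 0.408) or Asn-GTT-10-1 (0.14, adjusted p = 0.602), which does not show that the lines are equal there.

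Vesicles shed by the same lines were sequenced separately, so the change in cells could be set against the change in vesicles without shared libraries. Of the 155 features lower in ATG12-/- cells, 148 were also tested in vesicles, where 61 were lower, 15 higher and 72 not called, with 21.1% of 850 features lower and 22.6% higher in vesicles. Of the 64 higher in cells, 62 were tested in vesicles, where 31 were higher, 0 lower and 31 not called. A fit over all 18 libraries tested the difference between the 2 changes, which was called for 239 of 905 features (26.4%), 130 of them with a higher value in vesicles (14.4%) and 109 with a lower one (12%). Library totals turned that balance round, to 20 and 268.

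miR-222-3p kept its fall in vesicles, with 17.9, 27.8 and 11.3 normalised reads in ATG12-/- vesicles, against 179, 135 and 158 in wild type vesicles (log2 fold change -3.06, adjusted p = 4.15e-06). let-7b-5p was higher there too, with 93.8, 110 and 126 in ATG12-/- vesicles, against 46.3, 15.2 and 27.7 in wild type vesicles (1.98, adjusted p = 0.000229). For neither was the difference between vesicles and cells called (0.19, adjusted p = 0.762, and -0.06, adjusted p = 0.933). U22 went the other way. It had 8257, 9218 and 11359 normalised reads in ATG12-/- vesicles, against 3505, 2902 and 2714 in wild type vesicles (1.66, adjusted p = 1.83e-05), and the vesicle change minus the cell change was 2.85 (adjusted p = 6.78e-06). U8 fell further in vesicles than in cells, with 1248, 1256 and 1361 in ATG12-/- vesicles, against 11080, 7263 and 8549 in wild type vesicles (-2.78, adjusted p = 7.75e-07), a difference of -2.19 (adjusted p = 2.55e-06). Both differences held in every alternative run that tested them.

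**Figure D5:**
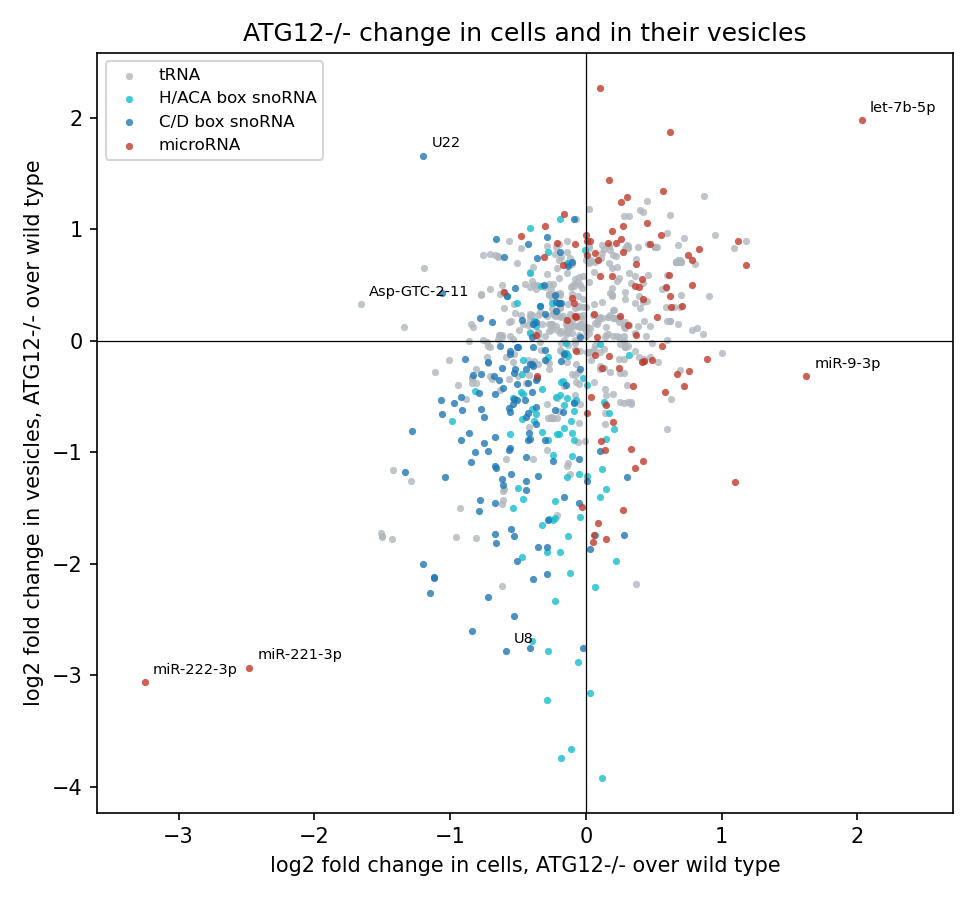
Log2 fold change of ATG12-/- over wild type in cells (x axis) and in vesicles (y axis) for 763 features of 4 RNA classes tested in both. miR-222-3p and miR-221-3p are low on both axes, let-7b-5p is high on both, and U22 is low in cells and high in vesicles.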

How the data were processed

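Small RNAs were sequenced from total RNA of HEK293T cells and their vesicles after 24 h of serum starvation. Per the labels' protocols, RNA was isolated with a NucleoSpin kit, libraries were made with a SMARTer small RNA kit with 12 PCR cycles and bead size selection, and reads were single-end and 50 bases long (HiSeq4000). The tools named are Bowtie2 2.3, DESeq2, bedtools and cutadapt 2.3, with the GRCh38 build, per the submitters' processing notes. How reads with several matches were assigned and whether strand was used are not given in the sources used here. The deposited values are a normalised read signal: 100% were whole multiples of 1 step per library (tolerance 1e-06). Up to a common constant, the steps are the reciprocals of median-of-ratios size factors over all 18 libraries (largest log deviation 3.57e-15). Each value is therefore a whole read count divided by 1 factor per library. That scaling spans cells and vesicles, which differ in makeup, and PCR duplicates were not told apart.

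From these values log2(value + 1) was tested with limma 3.58.1 (R 4.3.3, intensity trend, two-sided) over the 9 cell libraries, which share 1 estimate of spread. Features needed at least 10 normalised reads in at least 3 fitted libraries, and p-values were adjusted by Benjamini-Hochberg over all features tested. Fold changes are on the log2(value + 1) scale, which understates those of low features. The vesicle contrast used the 9 vesicle libraries, and the difference of changes all 18. The count tests edgeR 4.0.16 (quasi-likelihood) and DESeq2 1.42.0 were run on recovered reads and called 230 and 235 features. Shares of reads were compared by exact two-sided permutation. The fit was tested on simulated data. The replicate numbers did not pair libraries (correlations of deviations of same-numbered libraries were -0.309, -0.00324 and 0.129). Names were matched to GENCODE 29 and RefSeq, and tRNA genes are given as the table names them.

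Named features were those with the 15 largest changes in each direction among called features whose groups do not overlap (1 per tRNA family), all members of the small classes, the leading or most abundant members of each list and the 10 features with the most reads. let-7c-5p, let-7e-5p and let-7g-5p were added after their values were seen, to complete the family. The comparison and the lists were chosen with earlier results of these data known. The replicates are labelled biological, and p-values measure the spread between these libraries of 1 clone per knockout. Alternatives were the scalings, pseudocounts, filters, tools, a replicate block, 6 libraries only and leaving out each library.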

Additional observations from a re-analysis of the deposited data

Results flagged for a closer look

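Among the features named in the report, 24 had an ATG12-/- change that differed between vesicles and cells. That difference was tested over all 18 libraries (limma, adjusted p under 0.05). It was called for 26.4% of all 905 features. Many features were named for a large change in cells, and that change is subtracted here, which favours a difference. The count of 24 is therefore no result about the named features as a set. The values are the log2 change in vesicles minus that in cells, and no cause of these differences was tested. U22 had 2.85, U8 had -2.19 and miR-9-3p had -1.95. miR-9-3p, higher in ATG12-/- cells, had 8.27, 15.9 and 7.54 normalised reads in ATG12-/- vesicles against 13, 13.8 and 11.7 in wild type vesicles, so the groups overlapped there. miR-17-5p had -1.03, U5 had -0.94, Ala-AGC-7-1 had -0.81 and Ala-AGC-2-2 had -0.71. Asp-GTC-2-11, lower in ATG12-/- cells, had a difference of 1.99 and was not called in vesicles (log2 fold change 0.33, adjusted p = 0.184). hTR had 1.49 and RNY1 had 1.19. These 10 differences kept their call in every alternative run that tested them.

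For several others the call was lost with library totals: Asp-GTC-1-1 at 1.46 (0.88 with library totals), VTRNA1-1 at 1.06 (0.47), U6 at 0.96 (0.37), RNY3 at 0.95 (0.37) and VTRNA1-2 at 0.95 (0.37). VTRNA1-3 at 0.93, U2 at 0.78 and U4 at 0.63 lost it with library totals (0.35, 0.20 and 0.05), with TMM factors over all features (0.74, 0.59 and 0.44) and without ATG12-/- vesicle replicate 3 (0.83, 0.64 and 0.54), and U2 also without the filter. The call of VTRNA1-3 was also lost without ATG12-/- cell replicate 1, wild type cell replicate 2 or wild type vesicle replicate 3, and that of U4 without wild type cell replicate 2.

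Less firm were Gly-GCC-4-1 at -1.79, Lys-CTT-11-1 at -1.11, U36C at -0.80, U26 at 0.73, let-7f-5p at -0.66 and U1 at 0.65. The call of Gly-GCC-4-1 was lost without ATG12-/- cell replicate 1, 2 or 3, wild type cell replicate 2, ATG12-/- vesicle replicate 1 or 2, or wild type vesicle replicate 1, at values of -1.83 to -1.36, and with no filter. That of Lys-CTT-11-1 was lost without ATG12-/- cell replicate 1 or 2, wild type cell replicate 2 or 3, any ATG12-/- vesicle library or wild type vesicle replicate 1, at -1.18 to -0.91, and with TMM factors from microRNAs (-1.05) and no filter. Its log2 fold change in cells of 1.00 (adjusted p = 0.0353) lost its call without ATG12-/- replicate 1 or 2 or any wild type library, at 0.82 to 1.11. That of U36C was lost without ATG12-/- cell replicate 2 or 3, ATG7-/- cell replicate 2, wild type cell replicate 2 or 3, ATG12-/- vesicle replicate 1 or 2, or wild type vesicle replicate 1 or 3, at -0.80 to -0.64, under both count tests, and with TMM factors from microRNAs (-0.73), a pseudocount of 5 (-0.56), a replicate block and no filter. For U26 the call was lost without ATG12-/- cell replicate 1, wild type cell replicate 1 or 3, any ATG12-/- vesicle library, ATG7-/- vesicle replicate 1, or wild type vesicle replicate 2 or 3, at 0.59 to 0.76, and with library totals (0.15), TMM factors over all features (0.54) and no filter. For let-7f-5p it was lost without any ATG12-/- cell library, wild type cell replicate 2 or 3, ATG12-/- vesicle replicate 1 or 3, ATG7-/- vesicle replicate 1, or wild type vesicle replicate 1 or 3, at -0.71 to -0.53, and with TMM factors from microRNAs (-0.60), a replicate block and no filter. For U1 it was lost without any ATG12-/- or wild type cell library, ATG12-/- vesicle replicate 2 or 3, or wild type vesicle replicate 2 or 3, at 0.55 to 0.70, and with library totals (0.07), TMM factors over all features (0.46), a replicate block and no filter.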

How the results depend on the processing

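None of the 219 calls became a call in the opposite direction in any alternative run, but their number changed. Higher and lower calls in ATG12-/- against wild type cells (64 and 155) were 18 and 259 with TMM factors from microRNAs, 104 and 62 with library totals, 93 and 85 with TMM factors over all features, 88 and 95 with median-of-ratios factors over the cell libraries, 40 and 110 without a filter, and 86 and 233 with the 6 libraries alone. Leaving out 1 library gave 25 to 77 higher and 66 to 202 lower calls. edgeR gave 69 and 161, DESeq2 68 and 167, and a replicate block 51 and 143. Same-numbered libraries shared only a number, and their deviations had correlations of -0.309, -0.00324 and 0.129. Against ATG7-/- cells (48 higher and 123 lower) the counts were 120 and 31 with TMM factors from microRNAs, 108 and 64 with TMM factors over all features, 78 and 69 with library totals, and 21 to 65 and 56 to 158 without 1 library. The difference between vesicle and cell changes (130 higher and 109 lower) had 69 higher calls with TMM factors over all features, and 20 higher and 268 lower with library totals. Counting 1 copy per tRNA family, the share of reads in ATG12-/- minus wild type cells was 4.27 percentage points for tRNAs, 0.965 for microRNAs, 0.934 for Y RNAs, 0.681 for snRNAs and -0.0415 for U7, and without miR-6724-5p it was 0.486 for microRNAs. Signs turned for features without a call. With TMM factors from microRNAs U1 had -0.17, RNY4 -0.20, let-7c-5p -0.13, let-7e-5p -0.06 and let-7g-5p -0.07. With library totals U2 had 0.04 and RNY1 0.22, and RNY1 had 0.14 and 0.11 with the other two scalings. Without 1 library RNY1 ran from -0.08 to 0.04 and RNY4 from -0.08 to 0.13. Asp-GTC-2-11 in ATG12-/- minus ATG7-/- cells had 0.08 with TMM factors from microRNAs, and the vesicle minus cell change of miR-222-3p was -0.25 with library totals. Without 1 library that change ran from -0.18 to 0.50 for miR-222-3p and from -0.45 to 0.32 for let-7b-5p. The causes of these shifts were not tested. Values of ATG7-/- against wild type cells and of vesicles alone were not rerun under the alternatives. Features with few reads, such as miR-221-3p, miR-181a-5p and U88, are limited by depth.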
